A study of Rattus norvegicus with 11 samples.

Results

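The 9 genes described here, Mbp, Mobp, Mog, Mag, Cnp, Cldn11, Opalin, Ermn and Mal, encode proteins of myelin and of the mature oligodendrocyte. They were chosen by their symbols, each of which stands in 1 row of the 30560 genes in the count table, and all 9 passed the filter on low counts that left 15742 genes for testing. RNA of the striatum was sequenced from 11 adult male Sprague-Dawley rats, 1 library a rat, with the injured right side taken on day 3 in 9 of them. The 2 Normal rats had neither collagenase nor aspiration, so that the needle track is absent from the reference group. The 3 IC rats, a model of common intracerebral hemorrhage, received 0.2 U of collagenase VII-S in 1.0 μL, and the 3 IS rats, a model of severe hemorrhage, received 0.6 U in 3.0 μL. The 3 IS-HA rats received the IS dose and had 150 μL of the hematoma aspirated at 6 h. Collagenase breaks down the wall of small vessels, so that the bleed comes from the rat's own circulation, and its dose and the injected volume rose together between IC and IS. Libraries held 6701301 counts (IS-HA replicate 2) to 18817645 counts (IC replicate 3), and the lowest count of any of the 9 genes in any rat was 417.

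Myelin is the multilayered membrane that oligodendrocytes wrap around axons of the central nervous system, and the striatum is crossed by bundles of such axons. MBP and MOBP hold the cytoplasmic faces of the compacted layers together, MOG lies on the outermost layer and MAG faces the axon, and CNP stays in the uncompacted cytoplasmic channels. CLDN11 forms the tight junctions between the wraps, OPALIN is a transmembrane glycoprotein of mature oligodendrocytes, ERMN binds actin in the myelin-forming cell, and MAL is a proteolipid of membrane sorting. Transcription of many myelin genes depends on MYRF, a membrane-bound transcription factor that is switched on as oligodendrocytes mature, together with SOX10.

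Upstream sequence was matched by symbol for 7 of the 9 genes in RefSeq windows of the rat build GRCr8, and Ermn and Mog had no entry. Each window was read over the 250 bases before a transcription start, and Mbp had a pair of windows. The core spelling known for MYRF sites, CTGGCAC or CTGGTAC on either strand, was found in 5 of the 7 genes (Cnp, Cldn11, Mal, Mag and Opalin) and in 5.48% of all 33469 windows. This spelling was narrowed after the matches of the wider CTGGNAC had been seen, which was present in 6 of the 7 genes, Mbp included, and in 14.8% of all windows, so the counts are a description only. The Sox spelling ACAANG was present in 5 of the 7 genes (36.9% of all windows), CAGCTG in 3 (12%), its wider form CANNTG in 6 (65.5%), and TATAAA (12.9%), CACGTG (5.59%) and CATATG (3.63%) in 0. The hexamers that open with CA and close with TG are all forms of CANNTG and overlap with it, and the narrower MYRF spelling lies within the wider one. The sequences that carry the MYRF spelling are given 5′ to 3′ on the gene's own strand, with the match in capitals, which reads GTGCCAG or GTACCAG where it lies on the opposite strand. The match began 124 bases before the start for Cnp, 120 for Cldn11, 126 for Mal, 94 for Mag and 17 for Opalin. For Mag and Opalin only the bases around the match are given, because part of these windows falls inside the span of the gene as RefSeq draws it. For Opalin this part is 233 of the 250 bases and holds the match, and for Mag it is 89 bases. It is 115 bases for Mobp. The Mbp window that holds its Sox and CAGCTG matches lies wholly inside the gene.
Cnp, 250 bases upstream (chr10:86011254-86011503, plus strand): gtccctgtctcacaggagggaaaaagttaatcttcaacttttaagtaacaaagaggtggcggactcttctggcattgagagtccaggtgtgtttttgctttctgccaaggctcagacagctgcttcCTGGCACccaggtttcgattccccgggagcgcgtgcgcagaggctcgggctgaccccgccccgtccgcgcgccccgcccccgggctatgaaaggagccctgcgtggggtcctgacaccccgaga
Cldn11, 250 bases upstream (chr2:114149540-114149789, minus strand): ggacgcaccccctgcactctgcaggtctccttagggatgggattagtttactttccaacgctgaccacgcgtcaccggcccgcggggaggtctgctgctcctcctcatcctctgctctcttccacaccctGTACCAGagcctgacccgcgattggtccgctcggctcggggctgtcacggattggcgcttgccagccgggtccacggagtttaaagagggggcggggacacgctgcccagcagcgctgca
Mal, 250 bases upstream (chr3:135341424-135341673, minus strand): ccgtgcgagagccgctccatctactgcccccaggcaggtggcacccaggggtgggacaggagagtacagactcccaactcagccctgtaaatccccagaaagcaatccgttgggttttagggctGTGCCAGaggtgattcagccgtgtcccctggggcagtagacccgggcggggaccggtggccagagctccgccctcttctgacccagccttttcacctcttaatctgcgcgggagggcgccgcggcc
Mag, 27 bases around the match (chr1:95291122-95291148, minus strand): caggcggcccCTGGCACccagggggca
Opalin, 27 bases around the match (chr1:249858191-249858217, minus strand): cagacctacaGTGCCAGtgagagagaa
The matched letters are the same CTGGCAC for Cnp and Mag on the gene's strand and for Mal and Opalin on the opposite strand, and CTGGTAC for Cldn11. Binding at these letters was not measured here.

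In the Normal striatum the 9 genes together took 1.32% and 1.25% of all TPM, the authors' level in which counts are divided by gene length and each library is scaled to one sum. By group mean, Mbp was the most abundant at 6881 TPM, followed by Mobp at 1440, Cnp at 1417, Cldn11 at 830, Mal at 793, Mag at 540, Mog at 337, Opalin at 311 and Ermn at 278. All 9 were therefore far above detection in the reference tissue, which does not by itself tell which cells made them. After severe hemorrhage the mean share of the 9 genes was 0.693% ± 0.172 (SD, n = 3), against 1.28% ± 0.0527 (SD, n = 2) in Normal, 0.872% ± 0.16 (SD, n = 3) in IC and 0.906% ± 0.131 (SD, n = 3) in IS-HA. Mbp alone made up 47.7% to 56.9% of the summed TPM in each rat, so the share follows mostly this 1 gene. In whole tissue, fewer oligodendrocytes, less myelin RNA in each of them and a larger share of RNA from other cells cannot be told apart.

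In IS against Normal, 8 of the 9 genes fell (edgeR's quasi-likelihood test, Benjamini-Hochberg adjusted over 15742 genes), with log2 fold changes from -0.68 for Mag to -2.01 for Ermn, and 0 rose. Over all genes tested, 24.2% fell and 24.8% rose in this comparison. The median log2 fold change of the 9 genes was -1.07, beside 0.0181 over all genes tested. In normalized CPM (counts as a share of the library, scaled by edgeR's TMM factors), the 3 IS rats lay below both Normal rats without overlap for 8 of the 9 genes, as they did for 36.9% of all genes tested. With only 2 Normal rats, 8 calls became 4 when either Normal replicate 1 or Normal replicate 3 was left out, and 5 without IS replicate 4. The number of all genes tested that fell dropped in these fits too, from 3802 of 15742. It was 2831 of 16149 without Normal replicate 1, 1702 of 16119 without Normal replicate 3, and 2807 of 15901 without IS replicate 4. The log2 fold changes of the 8 genes were below 0 in all 21 alternative analyses.

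**Figure D1:**
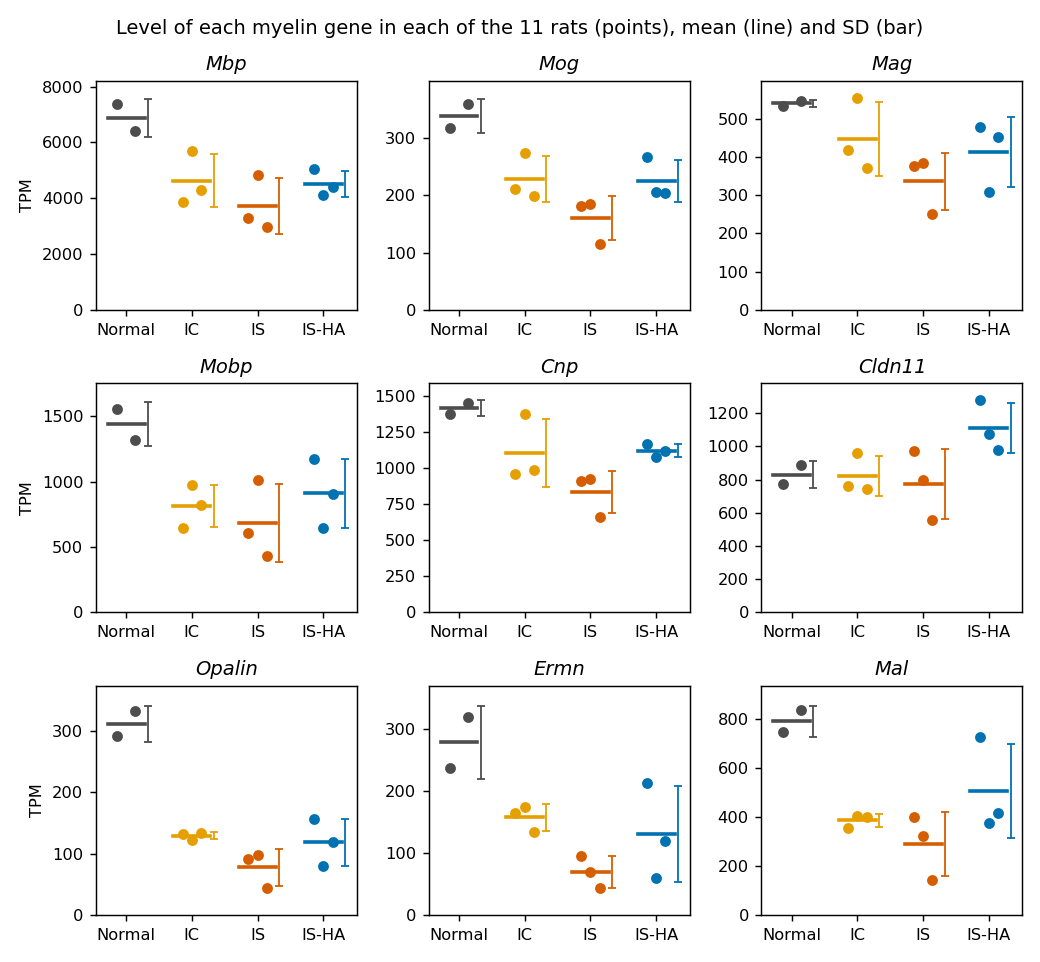
TPM of each of the 9 genes (vertical axes, linear, from 0) in the Normal, IC, IS and IS-HA rats, with a point per rat, a line at the group mean and a bar of 1 SD. For Mbp, Mog, Mobp, Cnp, Opalin, Ermn and Mal every injured rat lies below both Normal rats, by very little for Cnp. For Mag an IC rat lies above both Normal rats, and for Cldn11 the groups overlap apart from the IS-HA rats, which are the highest.

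Of the proteins of compact myelin, Mbp was at 7365 and 6397 TPM in the Normal rats, at 3876, 5695 and 4305 TPM in IC, at 3310, 4847 and 2962 TPM in IS, and at 5033, 4117 and 4410 TPM in IS-HA. No injured rat reached the lower Normal rat. The log2 fold change of Mbp was -0.88 in IS against Normal (SE 0.272, adjusted p = 0.0207), and this call was lost without Normal replicate 1, Normal replicate 3, IS replicate 2 or IS replicate 4. Mobp, whose product also lies at the cytoplasmic face of the layers, was at 1558 and 1322 TPM in Normal, at 650, 975 and 823 TPM in IC, at 605, 1016 and 430 TPM in IS, and at 1178, 648 and 909 TPM in IS-HA. The IS rats spread widely for this gene, IS replicate 3 being above all 3 IC rats and IS replicate 4 the lowest of the 11. Its log2 fold change was -1.07 in IS against Normal (SE 0.332, adjusted p = 0.0212), with the same 4 rats deciding the call.

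At the surface of the sheath, Mog was at 316 and 358 TPM in Normal, at 211, 273 and 198 TPM in IC, at 181, 184 and 116 TPM in IS, and at 266, 205 and 203 TPM in IS-HA. On the TPM scale the IS rats were lower than all IC, IS-HA and Normal rats. Mog fell by 1.07 on the log2 scale in IS (SE 0.207, adjusted p = 0.00214), and the call was kept without each of the 11 rats in turn. Mag, the adhesion molecule that faces the axon, was at 534 and 547 TPM in Normal, at 417, 555 and 370 TPM in IC, at 375, 384 and 251 TPM in IS, and at 480, 309 and 451 TPM in IS-HA. On this scale IC replicate 3 was above both Normal rats, while in normalized CPM it was below them, at 608 against 628 and 671. The log2 fold change of Mag in IS against Normal was -0.68 (SE 0.205, adjusted p = 0.0191), and it was no longer called without Normal replicate 1, Normal replicate 3 or IS replicate 4.

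Cnp, which encodes the cyclic nucleotide phosphodiesterase of the cytoplasmic channels, was at 1379 and 1456 TPM in Normal, at 957, 1378 and 986 TPM in IC, at 911, 923 and 665 TPM in IS, and at 1169, 1079 and 1119 TPM in IS-HA. The IS rats were below every other rat for this gene on the TPM scale. Cnp fell by 0.76 on the log2 scale in IS (SE 0.209, adjusted p = 0.0124), a call lost without Normal replicate 1 or Normal replicate 3. Cldn11, the tight junction gene, was at 774 and 886 TPM in Normal, at 762, 958 and 742 TPM in IC, at 974, 797 and 555 TPM in IS, and at 1277, 1078 and 981 TPM in IS-HA. The Normal, IC and IS rats overlapped. The log2 fold change of Cldn11 in IS against Normal was -0.09 (SE 0.227, adjusted p = 0.748), and over 21 alternatives it ranged from -0.23 to 0.06, with 18 of them below 0.

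The largest falls were those of Opalin and Ermn. Opalin was at 291 and 332 TPM in Normal, at 132, 122 and 133 TPM in IC, at 91.7, 98.4 and 43.3 TPM in IS, and at 156, 79.7 and 119 TPM in IS-HA. All injured rats were well below the Normal rats, and every IS rat was below every IC rat. In IS the mean of normalized CPM was 25.0% of Normal, a log2 fold change of -2.0 (SE 0.286, adjusted p = 4.14e-04), and the gene was called in 21 of 21 alternatives. Ermn was at 237 and 320 TPM in Normal, at 164, 175 and 133 TPM in IC, at 95.1, 68.9 and 43.2 TPM in IS, and at 214, 58.8 and 120 TPM in IS-HA. Its IS rats were below the IC rats as well, and the IS-HA rats ran from within the IS range to near the lower Normal rat. The log2 fold change in IS was -2.01 (SE 0.373, adjusted p = 0.00169), also called in 21 of 21 alternatives. Mal was at 748 and 838 TPM in Normal, at 357, 404 and 401 TPM in IC, at 402, 324 and 144 TPM in IS, and at 727, 378 and 417 TPM in IS-HA. IS-HA replicate 1 almost reached the Normal rats, and IS replicate 4 was by far the lowest. Mal fell by 1.46 on the log2 scale in IS (SE 0.339, adjusted p = 0.00541).

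In IC against Normal, 2 of the 9 genes fell and 0 rose, where 4.64% of all genes tested fell and 13% rose. These were Opalin, with a log2 fold change of -1.32 (SE 0.284, adjusted p = 0.00946), and Mal, with -1.08 (SE 0.339, adjusted p = 0.0492), both by edgeR's quasi-likelihood test, Benjamini-Hochberg adjusted. The other 7 log2 fold changes were between -0.88 (Mobp and Ermn) and -0.07 (Cldn11). The IC rats were below both Normal rats without overlap in normalized CPM for 8 of the 9 genes, and for 31.3% of all genes tested. The Opalin call was lost without Normal replicate 3. That of Mal was lost without Normal replicate 1 or 3, IC replicate 2, 3 or 4, IS replicate 3 or IS-HA replicate 3, and its adjusted p was close to the threshold. The number of calls was 4 without IS-HA replicate 2, 0 without Normal replicate 3, and 1 without Normal replicate 1, any 1 IC rat or IS-HA replicate 3. The number of all genes tested that fell moved with it, from 730 with every rat to 2240 without IS-HA replicate 2. It was 35 without Normal replicate 3, 235 without Normal replicate 1, 129 to 440 without 1 IC rat, and 549 without IS-HA replicate 3.

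In IS-HA against Normal, 3 of the 9 genes fell and 0 rose, where 12.1% of all genes tested fell and 19.5% rose. Opalin had a log2 fold change of -1.43 (SE 0.284, adjusted p = 0.00435), Ermn -1.15 (SE 0.371, adjusted p = 0.0366) and Mog -0.59 (SE 0.208, adjusted p = 0.0497), by edgeR's quasi-likelihood test, Benjamini-Hochberg adjusted. The IS-HA rats were below both Normal rats for 8 of the 9 genes in normalized CPM, as for 29.2% of all genes tested. Cldn11 was instead above Normal in all 3 IS-HA rats, a separation seen upward for 31.7% of all genes tested, with a log2 fold change of 0.42 (SE 0.23, adjusted p = 0.176). The Opalin call was kept without each of the 11 rats. Calls for Ermn and Mog were both lost without Normal replicate 1 or 3, any 1 IC rat or IS-HA replicate 3, which left 1 call. Without IS-HA replicate 2 the Ermn call alone was lost, and without IS replicate 2 or IS-HA replicate 1 that of Mog. The number of all genes tested that fell was 1898 with every rat, 878 without Normal replicate 1 and 352 without Normal replicate 3. It was 1518 to 1996 without each of the other rats named. The 3 comparisons with Normal share the same 2 Normal rats and are not independent of each other.

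**Figure D2:**
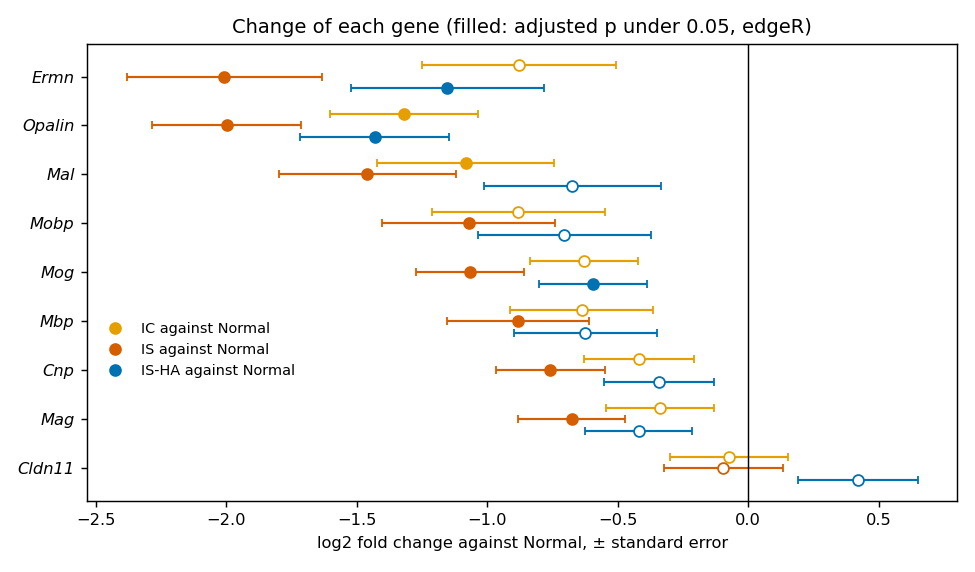
Log2 fold change of each gene against Normal (horizontal axis, with 1 standard error either way) in IC, IS and IS-HA, filled where the adjusted p by edgeR was under 0.05. The IS point is filled for 8 of the 9 genes and is the lowest of the 3 for all of them, and Cldn11 stays near 0 in IC and IS.

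Severity was addressed by IS against IC. The log2 fold change was below 0 for 9 of 9 genes, from -1.13 for Ermn (SE 0.341, adjusted p = 0.155) and -0.68 for Opalin (SE 0.26, adjusted p = 0.184) to -0.02 for Cldn11, with a median of -0.34 beside -0.00103 over all genes tested. None passed edgeR's quasi-likelihood test after that adjustment, and over all genes 0% fell and 0% rose. At an unadjusted p under 0.05, Mog, Opalin and Ermn were lower, 3 of 9 beside 11.7% of all genes tested. The same 3 genes had all IS rats below all IC rats in normalized CPM, as did 18.7% of all genes tested. In TPM this held for 4 of the 9, Cnp included, and for 18% of all genes tested. DESeq2's Wald test called 1 of the 9, Ermn, where it called 3.21% of all genes lower and 2.98% higher, and limma on TPM called 0 of the 9 and 0 of all genes. The count over all genes changed with IS-HA replicate 2, which belongs to neither group. It enters this comparison through the shared filter, scaling and estimate of spread. Without it 1226 genes fell and 1015 rose in IS against IC and Ermn was the 1 gene of the 9 that was called, whereas a fit of only the IS and IC rats called 0 of all genes.

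Aspiration was addressed by IS-HA against IS. The mean of the IS-HA rats was above that of the IS rats for 9 of 9 genes, with log2 fold changes from 0.26 for Mag (SE 0.185) to 0.86 for Ermn (SE 0.34) and a median of 0.472, beside 0.0452 over all genes tested. None of the 9 passed edgeR's quasi-likelihood test (adjusted p 0.544 to 0.742), where 0.00635% of all genes tested rose and 0% fell. DESeq2's Wald test called 0 of the 9 as well, where it called 0.318% of all genes higher and 0.133% lower, and limma on TPM called 0 of the 9 and 0 of all genes. At an unadjusted p under 0.05, Mog, Cldn11, Ermn and Mal were higher, 4 of 9 beside 5.58% of all genes tested. In normalized CPM, Cnp was the 1 gene whose IS-HA rats were all above the IS rats, as for 4.96% of all genes tested. In TPM this held for 3 genes, Mog, Cnp and Cldn11, and for 3.6% of all genes tested. In the fit without IS-HA replicate 2, in which 540 genes rose and 155 fell, the count for the 9 genes stayed at 0. IS replicate 4 was the lowest of the 11 rats for 9 of 9 genes in TPM and 8 in normalized CPM, and IS-HA replicate 1 was the highest IS-HA rat for 9 and 6.

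Between IS-HA and IC the values went either way. In normalized CPM the IS-HA means were above IC for 6 genes and below for Mag, Opalin and Ermn, while in TPM they were above for 4 and below for 5, Mbp and Mog included. None of the 9 was called by edgeR's quasi-likelihood test, with 0% of all genes falling and 0% rising. DESeq2's Wald test also called 0 of the 9, with 0.0699% of all genes falling and 0.0635% rising, and limma called 0. Mbp differed by 0.01 on the log2 scale (SE 0.247) and Mog by 0.04 (SE 0.188). For Cldn11 all 3 IS-HA rats were above all 3 IC rats, as for 4.66% of all genes tested, with a log2 fold change of 0.49 (SE 0.204, adjusted p = 0.841 by edgeR). It was the 1 gene of the 9 past an unadjusted threshold of 0.05, which 2.59% of all genes tested passed upward.

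Because Cldn11 stood apart in its values, the other 8 genes were also expressed as a count ratio to Cldn11 within each library, a measure that does not depend on library scaling. The choice of Cldn11 as denominator was made after its values were seen, and the ratios carry no test. Relative to the mean of the Normal rats, the log2 ratio in the 9 injured rats was -2.34 to -1.07 for Opalin, -2.61 to -0.63 for Ermn and -1.88 to -0.75 for Mal. It was -1.53 to -0.44 for Mobp, -1.29 to -0.45 for Mbp, -1.13 to -0.51 for Mog, -1.18 to -0.17 for Mag and -0.90 to -0.25 for Cnp. For 8 of 8 genes every injured rat was below both Normal rats, as for 19.1% of all genes tested in the same ratio. The same 8 genes were already separated in this way in normalized CPM, so the count in the ratio is not a separate finding. The IS-HA mean of the ratio was above the IS mean for 3 genes (Opalin, Ermn and Mal) and below it for 5, while Cldn11 itself had its highest mean in IS-HA. Opalin ratios ranged from -1.62 to -2.34 in IS-HA and from -1.60 to -2.27 in IS, nearly the same range.

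**Figure D3:**
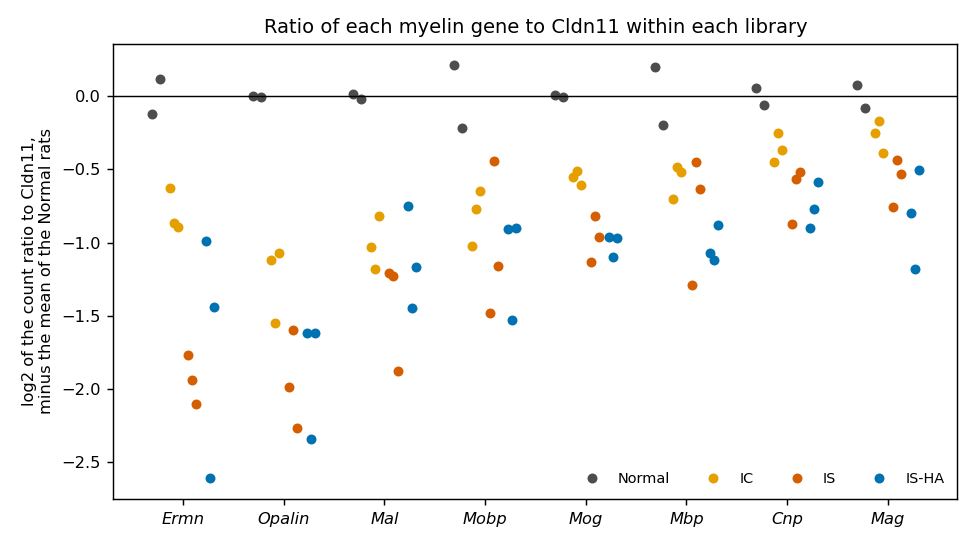
Log2 ratio of the counts of 8 myelin genes to Cldn11 in each library (vertical axis), minus the mean of the 2 Normal rats, with a point per rat. Injured rats lie below the Normal rats for every gene, down to -2.61 for Ermn in an IS-HA rat.

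Other genes of mature oligodendrocytes went both ways. Of 30 listed, 29 had a single row in the table and were tested (Tmem125 has more than 1 row and was left out of the counts). In IS against Normal 15 of the 29 fell, 2 rose and 12 did not pass the test, with a median log2 fold change of -0.536. The lowest were Tmem88b at -2.40 (SE 0.493) and Gpr37, an orphan receptor of oligodendrocytes, at -2.16 (SE 0.36). Klk6, a secreted protease of oligodendrocytes, rose by 1.33 (SE 0.363, adjusted p = 0.012), and Tf, the iron carrier transferrin, by 0.82 (SE 0.297, adjusted p = 0.0393). In IC 5 fell and 2 rose, and in IS-HA 9 fell and 4 rose, all by edgeR's quasi-likelihood test, Benjamini-Hochberg adjusted. Over all genes tested, 24.2% fell and 24.8% rose in IS, 4.64% and 13% in IC, and 12.1% and 19.5% in IS-HA.

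Of 9 enzymes of myelin lipids, 4 fell in IS against Normal, 0 rose and 5 did not pass the test. Over all genes tested, 24.2% fell and 24.8% rose. Elovl7, a fatty acid elongase, had -2.29 (SE 0.636), and Ugt8, which makes galactosylceramide, had -1.44 (SE 0.286, adjusted p = 0.00236 by edgeR). The highest values were 0.18 for Plpp2 and 0.12 for Cers2, a ceramide synthase, neither of which was called. In IC 0 of the 9 were called, and in IS-HA 1 fell, where 12.1% of all genes tested fell.

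Among 10 transcription factors of the lineage, 4 fell and 1 rose in IS, where 24.2% of all genes tested fell and 24.8% rose. St18 was at -3.44 (SE 0.55) and Zfp536 at -1.5 (SE 0.302), while Nkx2-2, a homeodomain factor of the oligodendrocyte lineage, rose by 1.29 (SE 0.233, adjusted p = 0.00144 by edgeR). Olig1, the next highest, was at 0.44 (SE 0.232, adjusted p = 0.137). Myrf and Sox10, which are given because of the upstream sequences above and after their values were seen, had -0.73 (SE 0.241, adjusted p = 0.0272) and -0.26 (SE 0.167, adjusted p = 0.213). In IC 2 of the 10 fell and 1 rose, and in IS-HA 2 fell and 3 rose. Of 10 genes of precursors and newly formed oligodendrocytes, 2 fell and 1 rose in IS, with a median of 0.253. Neither count was above the share over all genes tested, 24.2% lower and 24.8% higher. Enpp6, a marker of newly forming oligodendrocytes, fell by 1.45 (SE 0.344), Sox6 was at -1.07 (SE 0.458, adjusted p = 0.0736), C1ql1 was at 0.83 (adjusted p = 0.0983), and Vcan, a proteoglycan of the precursor and of the extracellular matrix, rose by 1.77 (SE 0.292). In IC 0 fell and 1 rose, and in IS-HA 0 fell and 2 rose. For both lists, the shares over all genes tested were 4.64% lower and 13% higher in IC. In IS-HA they were 12.1% and 19.5%.

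Genes of the axon at its contacts with the sheath were lower as well. All 10 genes of the paranode, juxtaparanode and node that were listed fell in IS, with a median of -2.08. Over all genes tested, 24.2% fell. Cntnap2, the adhesion partner at the juxtaparanode, was at -3.41 (SE 0.382) and Ank3, which encodes the scaffold ankyrin-G of the node, at -2.60 (SE 0.297), and the highest values were -0.89 for Sptbn4 and -1.13 for Nrcam. In IC 3 of the 10 fell and in IS-HA 7, beside 4.64% and 12.1% of all genes tested. All 4 neurofilament genes fell in IS as well, with -2.13 for Nefl, -1.76 for Nefm, -1.64 for Nefh and -1.49 for Ina, while in IC only Nefm was called and in IS-HA 0 were (log2 fold change median -0.89). Most of these genes are made by neurons, and Nfasc and Cntn2 also by oligodendrocytes. The difference between the axonal and the myelin genes was not tested.

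**Figure D4:**
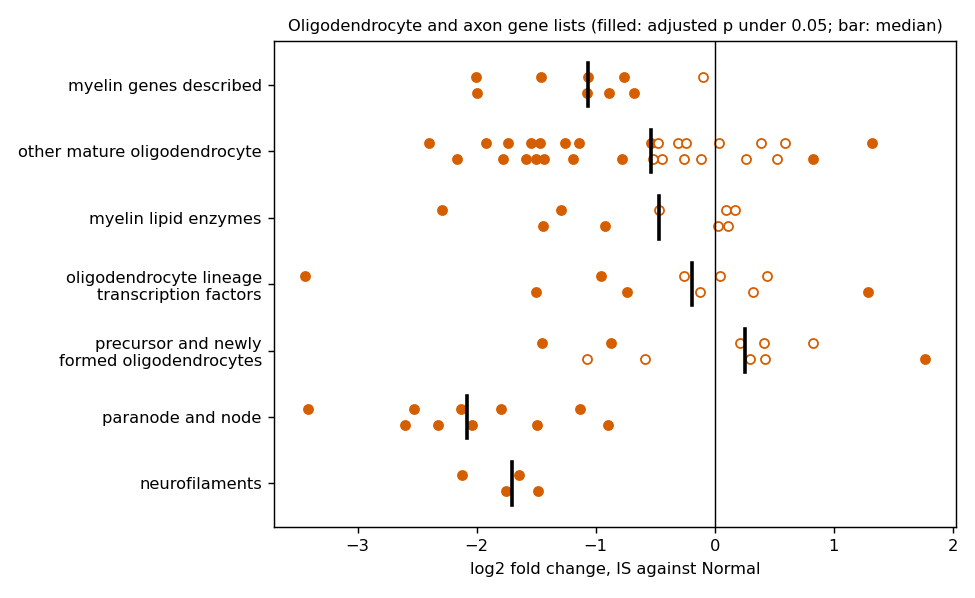
Log2 fold change in IS against Normal (horizontal axis) for the 9 myelin genes and 6 lists of oligodendrocyte and axon genes, with a point per gene, filled where the adjusted p by edgeR was under 0.05, and a bar at the median of each list. Every paranode, node and neurofilament gene lies below 0, whereas the lists of transcription factors and precursors hold genes on both sides.

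Markers of other cells moved in the same rats, and their part in the lower myelin values was not tested. Of 10 microglia and macrophage markers 10 rose in each comparison with Normal. Over all genes tested, 13% rose in IC, 24.8% in IS and 19.5% in IS-HA. The summed TPM of these markers was 245 to 348 in Normal, 2227 to 3055 in IC, 4135 to 5366 in IS and 2937 to 4946 in IS-HA. In IS the changes ran from 1.71 for Cx3cr1 and 2.15 for Csf1r to 5.41 for Tyrobp and 6.92 for Cd68. All 5 neutrophil markers (S100a8, S100a9, Mmp8, Csf3r and Cxcr2) rose in each as well, from 4.91 to 5.11 summed TPM in Normal to 494 to 696 in IS, with changes in IS of 4.02 for Csf3r, 6.72 for Cxcr2, 7.74 for S100a9 and for Mmp8, and 8.03 for S100a8. IS replicate 4, the lowest rat in TPM for 9 of 9 myelin genes, had the highest microglia and macrophage sum. The other groups went both ways. IC replicate 2 had the lowest such sum of the IC rats (2227 TPM) and also their lowest sum of the 9 myelin genes (7525 TPM). IS-HA replicate 1 had the lowest of the IS-HA rats (2937 TPM) and their highest myelin sum (10500 TPM). IS-HA replicate 2, the smallest library, had the highest neutrophil sum, at 858 TPM.

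Markers of striatal medium spiny neurons summed to 6405 to 6823 TPM in Normal and to 1376 to 3625 TPM in IS, with 9 of 10 falling and Pde10a the lowest at -4.99, while the smallest log2 fold changes were -1.33 for Penk (adjusted p = 0.0529 by edgeR) and -1.37 for Adora2a. Among 8 general neuron genes 6 fell, with Map2 at -3.23 and Syt1 at -2.93, and Stmn2 at -0.83 and Syp at -0.60 were not called. Over all genes tested, 24.2% fell and 24.8% rose in IS against Normal. The 5 genes of cortical excitatory neurons summed to between 11.7 TPM (IS replicate 4) and 393 TPM (IS replicate 2), and to 102 and 360 TPM in the Normal rats, so the pieces of tissue differed in how much of this signal they held. None of these was called in IS by edgeR, with log2 fold changes that included -1.70 for Neurod6, -0.39 for Slc17a7, -0.14 for Tbr1 and -0.04 for Neurod2. Of 8 astrocyte genes Slc1a2 fell by 3.74 and Gfap rose by 3.16, and the other 6, from Gjb6 at -1.19 to Gja1 at -0.10, were not called. Of 6 endothelial genes Flt1 fell by 0.58 and Pecam1 rose by 0.67, with Tek at -0.10 and Cldn5 at 0.84 not called.

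Schwann cell genes were close to absent. Ncmap was at 0 in all 11 rats, and Prx reached at most 2.47 TPM, with a log2 fold change in IS of 0.48 that was not called. Pmp2, a fatty acid binding protein of peripheral myelin that other cells also make, rose by 4.61 (SE 0.579, adjusted p = 1.96e-04 by edgeR) and reached 24.3 TPM. Blood and choroid plexus markers that were read were low as well. Of 4 blood genes listed, 2 had a single row in the table and were tested, and the alpha globin genes were not among them. Hbb was at most 129 TPM, with a log2 fold change of -0.69 in IS, and Alas2, a gene of red cell precursors, had -0.49, neither called. Choroid plexus markers summed to at most 25.5 TPM in a rat, with Ttr at 0.60 (not called), Folr1 rising by 2.78 and Kl falling by 2.16, while Kcnj13 did not pass the filter.

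Across the 11 rats, the mean of the 9 genes (log2 CPM, each gene centred) was followed most closely by Tspan2 (r = 0.973), Prr18 (0.971) and Tmem125 (0.968, in 1 of its rows), all on the list of mature oligodendrocyte genes. Other genes close to it were Fez1, Daam1, Btbd6, Slain1, the neurofilament gene Nefm and Fibcd1, at 0.952 to 0.954. These correlations are descriptions over 11 libraries that share the 4 groups and the same scaling, and Normal lies apart from the injured rats on both axes. Among the 9 genes themselves, r to this mean was 0.876 to 0.976 for 8 of them and 0.387 for Cldn11, each gene being part of the mean. After the group means were taken out, the value for Cldn11 was 0.746, within the 0.614 (Mbp) to 0.916 (Mal) of the others. Cldn11 is part of this mean as well, so the value is partly a correlation with itself. It was not computed against the other genes alone. The genes closest to the mean on those deviations were Acsm5 (0.972), Jam3 (0.949), a junction protein on the oligodendrocyte list, Plcd4 (0.939), Gpr62 (0.937) and Phgdh (0.92), and then Wwtr1, Homez, ENSRNOG00000069213, Hmgn5 and Tnfsf18, at 0.912 to 0.917.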

How the data were processed

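Paired-end, 150-base reads of poly(A) libraries were made by the authors from 20 to 30 mg of striatum, and their processing notes name fastp 0.20.0, HISAT2 2.1.0, SAMtools 1.9, featureCounts, DESeq2 and the build mRatBN7.2. Whether counting used strand is not given in the sources used here. The authors deposited whole-number counts per gene, not normalized, and TPM, for 30560 genes, 8693 of them at 0 in every rat. Columns were assigned to rats through the labels, with 0 left over, and 0 pairs of libraries were identical. Library totals were 6701301 to 18817645 counts, so that 3 counts stand at 0.159 to 0.448 CPM, which covers counting error only.

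The counts were analysed with edgeR 4.0.16 (R 4.3.3): filterByExpr removed low genes, TMM set the scale, and a single quasi-likelihood model of the 4 groups gave F tests, Benjamini-Hochberg adjusted over 15742 genes, with a threshold of 0.05. The SE was taken as the size of the log2 fold change over √F. The methods name DESeq2, which was run as an alternative (1.42.0, Wald test), as was limma 3.58.1 on log2(TPM + 1) and log2(TPM + 0.1). Other alternatives were other size factors, filters, the groups compared alone, each rat left out, a replicate block and a fold cutoff. The fit was tested on simulated data. Normal has 2 rats here, and the p-values measure the spread between single rats. The genes and lists were chosen with earlier results of these data known. All 9 genes, and of each list the 2 lowest and 2 highest in IS against Normal and lists of 5 or fewer in full are named, except for a few genes that are not reported here. Upstream windows are from RefSeq (GRCr8), another build than that of the counts, and gene coordinates are not given. Plots used matplotlib 3.10.9 (Python 3.11.15).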

Additional observations from a re-analysis of the deposited data

How the results depend on the processing

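Every comparison was recomputed under 21 alternatives, and no log2 fold change that was called changed sign. In IC against Normal the 2 calls became 1 with library size alone, with at least 10 counts in every rat and with limma on log2(TPM + 1) or log2(TPM + 0.1), 5 with DESeq2's Wald test, 5 with only the groups compared, 0 to 4 with 1 rat left out, and 5 without IS replicate 4 and IS-HA replicate 2 together, an alternative chosen after the data were seen. The number of all genes that fell, 730 at first, became 295 with library size alone and 610 with at least 10 counts in every rat. It became 236 and 149 with limma, 1551 with DESeq2's Wald test and 2633 with only the groups compared. With 1 rat left out it was 35 to 2240, and without those 2 rats together 2913. In IS against Normal the 8 calls became 4 to 8 with 1 rat left out. They became 5 with an added cutoff of 1 on the log2 fold change. All genes were not counted under that cutoff, so the 5 has no share to stand beside. With 1 rat left out, the number of all genes that fell was 1702 to 4646, where 3802 fell with every rat. In IS-HA against Normal the 3 calls became 1 with library size alone, with only the groups compared and with either limma fit, and 1 to 3 with 1 rat left out. The number of all genes that fell, 1898 at first, became 1104 with library size alone and 750 with only the groups compared. It was 1113 and 935 with limma, and 352 to 2055 with 1 rat left out. In IS against IC the 0 calls became 1 with DESeq2's Wald test and 0 to 1 with 1 rat left out. The counts of IS-HA against IS and against IC were 0 throughout. Replicate numbers are shared by different rats, and the deviations of same-numbered IS and IC rats correlated at 0.356, -0.34 and 0.0848. Over same-numbered rats of any groups the values ran from -0.475 (IS and IS-HA replicate 2) to 0.356. Deviations from a mean of 2 or 3 rats depend on each other, so these values cannot decide whether the numbers pair the samples. With the replicate block, 0 of the 9 genes were called in IC, 2 in IS and 1 in IS-HA against Normal, and the median in IS was -0.696. Of all genes tested, 15, 908 and 664 fell in these 3 comparisons with the block. The cause of these shifts was not tested. Over all genes, the number lower ran from 15 (replicate block) to 2913 in IC, where 730 were reported, from 908 (replicate block) to 4646 in IS (3802), and from 352 (without Normal replicate 3) to 2674 in IS-HA (1898) against Normal. The number higher ran from 799 to 3337 (2040), from 1879 to 4807 (3908) and from 1228 to 3815 (3067). Depth was no limit for single values of the 9 genes, whose counts were 417 or more, whereas the 2 Normal rats limit every comparison with them.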
